A study of Mus musculus with 36 samples.

Results

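H3K9me3, trimethylation of histone H3 at lysine 9, was described here at 10 genes of bile acid and steroid synthesis in mouse liver: Cyp7a1, Cyp8b1, Cyp27a1, Cyp7b1, Cyp39a1, Cyp46a1, Hsd3b7, Akr1d1, Baat and Cyp17a1. Their members were the bins (short stretches cut from H3K9me3 peaks) that the authors assigned to these gene symbols in 6 tables of comparisons between groups. There were 110 such bins among 414426 distinct bins, and they came from 32 female and 41 male peaks. No bin was assigned to Baat in any table, so the bins belonged to 9 of the 10 genes.

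Bile acids are made from cholesterol in hepatocytes. The classical pathway starts with Cyp7a1, its rate-limiting hydroxylase, and Cyp8b1 directs it towards cholic acid; the alternative pathway starts with Cyp27a1, a mitochondrial side-chain hydroxylase, and continues with the oxysterol hydroxylase Cyp7b1. Cyp39a1 and Cyp46a1 handle oxysterols (Cyp46a1 makes the oxysterol of the brain), Hsd3b7 and Akr1d1 change the steroid ring shared by both pathways, Baat joins bile acids to taurine or glycine, and Cyp17a1 makes precursors of androgens. H3K9me3 is a mark of compacted chromatin that is dense over repeats and over genes kept silent in a cell type.

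Chromatin came from frozen whole liver of offspring of both sexes. All were floxed littermate controls (Reg3g-fl/fl or Reg3g-fl/+) on a C57BL/6J background and with wild-type C57BL/6J sires. Dams ate a Western-style diet (maternal obesity, MO) or chow (control) from before mating until the end of lactation. Livers were taken at 3 weeks, before weaning, or at 8 weeks, after chow from weaning onwards, which gave 8 groups with 4 ChIP libraries each (32 in all) and 4 input libraries. Liver holds several cell types, and a change in the mark within a cell type cannot be told apart from a change in the share of cells that carry it.

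Each table gave 1 value per bin that was used here, the authors' mean log2 CPM over the 8 libraries of the 2 groups compared. CPM are read counts scaled to a total per library. Summed over the listed bins, CPM came to 67.9% to 80.6% of that total in the 6 tables. With 1 short bin per peak, so high a share means that the total was probably not all reads sequenced. No value per library was used, so the means carry no SD and no difference below has a p-value; the reads obtained from each library were not analysed here, and the variation between animals cannot be read from the means. The tables held MO with control at 3 weeks, MO with control at 8 weeks, and controls of both ages, for each sex. The tables were normalised separately, so levels set across them also carry the difference in scaling between tables. A shift shared by most bins between tables is therefore not read as a general rise or fall of the mark. The 6 tables listed 102145 to 159357 bins, always 1 bin per peak, and the authors' choice of that bin is not stated in the sources used here. The same peak could therefore be listed by different bins in 2 tables. A peak that a table did not list is called not listed, which does not mean that the mark was absent. Of the cell type markers, 5 or 6 of 7 hepatocyte genes, 3 or 4 of 4 cholangiocyte genes, 3 of 3 Kupffer cell genes and 1 of 2 blood genes had an assigned bin, which does not identify the cells, because the assay measures a histone mark and not expression.

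Sequences were printed for promoters with and without a bin over the start site and for bins of high level, with every CG dinucleotide in capitals and all other bases in lower case. The first set holds promoters as RefSeq defines them on GRCm38.p6, from 250 bases before to 50 after the start site. Of the 10 genes, 5 were matched in that table (Cyp27a1, Cyp46a1, Akr1d1, Hsd3b7 and Cyp8b1). Cyp27a1 and Cyp46a1 are shown because listed bins lay over their start sites in both sexes, and Akr1d1 because its nearest peak lay 4092 bp away in males and 6712 bp away in females.
Cyp27a1, chr1:74713285-74713584, plus strand: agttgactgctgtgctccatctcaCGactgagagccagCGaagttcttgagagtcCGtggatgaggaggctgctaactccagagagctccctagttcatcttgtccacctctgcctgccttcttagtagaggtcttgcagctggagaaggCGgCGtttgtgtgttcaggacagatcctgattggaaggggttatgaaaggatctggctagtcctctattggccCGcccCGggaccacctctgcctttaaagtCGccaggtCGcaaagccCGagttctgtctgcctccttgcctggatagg
Cyp46a1, chr12:108334066-108334365, plus strand: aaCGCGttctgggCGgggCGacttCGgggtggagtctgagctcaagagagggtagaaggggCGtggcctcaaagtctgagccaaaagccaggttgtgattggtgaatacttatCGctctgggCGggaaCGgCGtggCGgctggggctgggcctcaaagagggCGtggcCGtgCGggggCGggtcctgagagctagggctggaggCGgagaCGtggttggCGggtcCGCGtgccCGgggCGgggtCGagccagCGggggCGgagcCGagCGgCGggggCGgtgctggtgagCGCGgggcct
Akr1d1, chr6:37529923-37530222, plus strand: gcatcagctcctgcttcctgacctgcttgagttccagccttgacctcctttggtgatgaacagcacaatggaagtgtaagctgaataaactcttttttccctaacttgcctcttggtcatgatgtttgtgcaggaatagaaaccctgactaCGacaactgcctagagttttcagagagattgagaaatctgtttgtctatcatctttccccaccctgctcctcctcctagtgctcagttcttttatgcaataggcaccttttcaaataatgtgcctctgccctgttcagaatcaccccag

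The Cyp27a1 promoter held 10 CG dinucleotides, and 43.5% of the 32851 promoters in the table held as many or more. The Cyp46a1 promoter held 31, which 10.6% of promoters reached. The Akr1d1 promoter held 1, the count that 94.6% of promoters reached. The Hsd3b7 and Cyp8b1 promoters held 3 and 5. CG was counted on the printed strand and reads the same on both strands.

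The second set holds the central 300 bases of 4 listed bins with high levels, read from the GRCm38 plus strand. They are the bin in intron 1 of Cyp7b1 that was highest in females, the bin upstream of Cyp7b1 that was highest in males, the highest Akr1d1 bin in males and the highest Cyp7a1 bin in females at 8 weeks.
Cyp7b1 intron 1, chr3:18196179-18196478: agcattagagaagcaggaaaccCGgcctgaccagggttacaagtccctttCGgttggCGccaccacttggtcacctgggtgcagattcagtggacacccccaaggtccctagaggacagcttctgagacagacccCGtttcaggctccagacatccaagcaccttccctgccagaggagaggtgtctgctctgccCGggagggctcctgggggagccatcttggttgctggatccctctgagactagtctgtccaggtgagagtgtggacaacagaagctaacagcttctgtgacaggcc
Cyp7b1 upstream, chr3:18295643-18295942: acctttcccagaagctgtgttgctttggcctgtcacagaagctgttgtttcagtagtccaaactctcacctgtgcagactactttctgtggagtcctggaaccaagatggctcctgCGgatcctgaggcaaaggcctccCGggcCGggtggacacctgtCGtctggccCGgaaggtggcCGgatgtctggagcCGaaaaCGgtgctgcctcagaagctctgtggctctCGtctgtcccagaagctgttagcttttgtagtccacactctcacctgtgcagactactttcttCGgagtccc
Akr1d1 distal, chr6:37686258-37686557: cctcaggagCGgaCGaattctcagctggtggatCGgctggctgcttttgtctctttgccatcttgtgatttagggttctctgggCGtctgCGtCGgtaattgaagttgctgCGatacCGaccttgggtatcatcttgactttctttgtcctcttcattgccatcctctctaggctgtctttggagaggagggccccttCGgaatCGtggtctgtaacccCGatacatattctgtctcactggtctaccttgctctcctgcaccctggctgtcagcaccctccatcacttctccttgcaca
Cyp7a1 upstream, chr4:6308752-6309051: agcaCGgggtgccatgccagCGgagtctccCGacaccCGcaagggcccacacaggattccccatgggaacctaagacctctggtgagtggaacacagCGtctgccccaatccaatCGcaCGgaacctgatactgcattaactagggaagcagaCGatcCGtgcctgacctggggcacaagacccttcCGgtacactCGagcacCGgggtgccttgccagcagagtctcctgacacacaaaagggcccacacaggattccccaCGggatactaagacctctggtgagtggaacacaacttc

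Repeat-masked bases (lower case in the RefSeq genome) made up 84.7% of the printed Cyp7b1 intron 1 stretch, 98.7% of the Cyp7b1 upstream stretch and 90.3% of the Cyp7a1 stretch, but 0% of the Akr1d1 stretch. The 4 stretches held 5, 10, 11 and 13 CG dinucleotides in the order Cyp7b1 intron, Cyp7b1 upstream, Akr1d1 and Cyp7a1. Among the centres of all bins of at least 300 bases of the same sex, 61.5%, 22.4%, 18.9% and 14.8% held as many or more. Over all member bins the sequence was close to that of the whole set. Median GC content was 55.7% for the 48 female member bins (53.9% for all female bins). The 62 male member bins had a median of 54.3% (53.7% for all male bins). More than 50% of the bases were masked in 9 of 48 female member bins (18.8%, against 20.2% of all) and in 8 of 62 male member bins (12.9%, against 18.6%).

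Peaks lay over very different shares of the 10 genes. Hsd3b7, Cyp8b1 and Cyp46a1 were covered over most of their length, Cyp39a1, Cyp7b1 and female Cyp27a1 over a small part, and Cyp7a1, Baat and Cyp17a1 held no peak in either sex. In females, peaks covered 100% of Hsd3b7, 95.2% of Cyp8b1 and 87.3% of Cyp46a1, against a median of 8.90% over 21951 protein-coding genes. In males the shares were 86.2%, 74.7% and 74.5%, against a median of 9.37%. Cyp27a1 had 3.44% in females and 17.2% in males, where a peak of 2744 bp lay near its end with no female peak over it. Cyp39a1 had 5.70% and 4.38%, Cyp7b1 0.830% and 1.13%, and Akr1d1 0.660% and 0%. Hsd3b7, Cyp8b1 and Cyp46a1 ranked between the 88.9th and the 96.4th percentile of protein-coding genes. Hsd3b7 (3199 bp) and Cyp8b1 (1950 bp) are short, and each lay under a single peak in each sex. Cyp46a1 (27854 bp) was covered by 3 peaks in females, the longest of 20544 bp, and by 8 peaks in males, the longest of 9079 bp. At least 1 peak lay over 79.5% of protein-coding genes in females and 78.5% in males, so the lack of a peak over Cyp7a1, Baat and Cyp17a1 was the less common state.

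**Figure D1:**
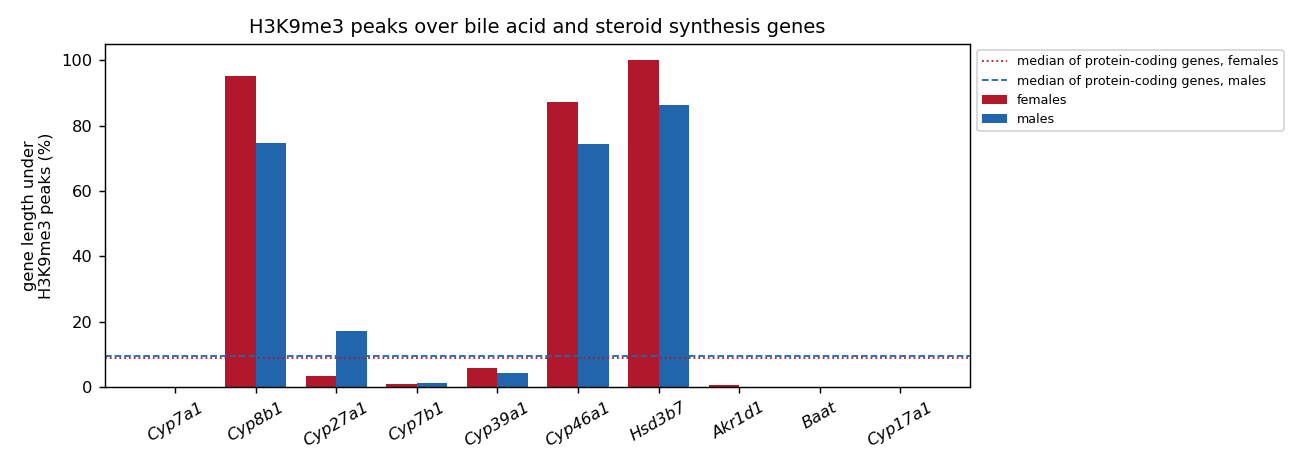
Share of each gene's length (%) under H3K9me3 peaks in females (red) and males (blue); dotted and dashed lines are the medians of all protein-coding genes. Hsd3b7, Cyp8b1 and Cyp46a1 lie between 74.5% and 100%, and Cyp7a1, Baat and Cyp17a1 lie at 0.

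Levels are given for all bins assigned to a gene, most of which lay outside it for some genes (Akr1d1 had 1 of 13 bins in the gene and Cyp7a1 0 of 8), so they are not levels over the gene. They were compared between genes per length, as the percentile of each bin's CPM per kb among all bins of its table. Of the Akr1d1 values, 24 of 27 lay above the median of their table, with 12 of 17 for Cyp7a1, 20 of 30 for Cyp7b1 and 12 of 24 for Cyp39a1. For Cyp46a1, 6 of 38 values lay above the median, with 3 of 10 for Cyp8b1, 2 of 12 for Hsd3b7, 2 of 17 for Cyp27a1 and 3 of 13 for Cyp17a1. By level without division by length, which does not raise short bins, 20 of 27 Akr1d1, 24 of 30 Cyp7b1 and 11 of 17 Cyp7a1 values lay above the median, against 12 of 38 for Cyp46a1, 4 of 10 for Cyp8b1, 5 of 12 for Hsd3b7 and 6 of 17 for Cyp27a1. Cyp39a1 had 12 of 24 and Cyp17a1 6 of 13 by level. On that scale the highest Cyp46a1 value reached the 96.1st percentile. These counts take in the same bin in several tables, so the values of a gene are not independent. As a set, the member bins were not set apart from the rest. Their median percentile was 31.8 to 46.6 per kb and 40.1 to 53.8 by level over the 6 tables, and at most 3 of them in a table were above the 95th percentile per kb.

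**Figure D2:**
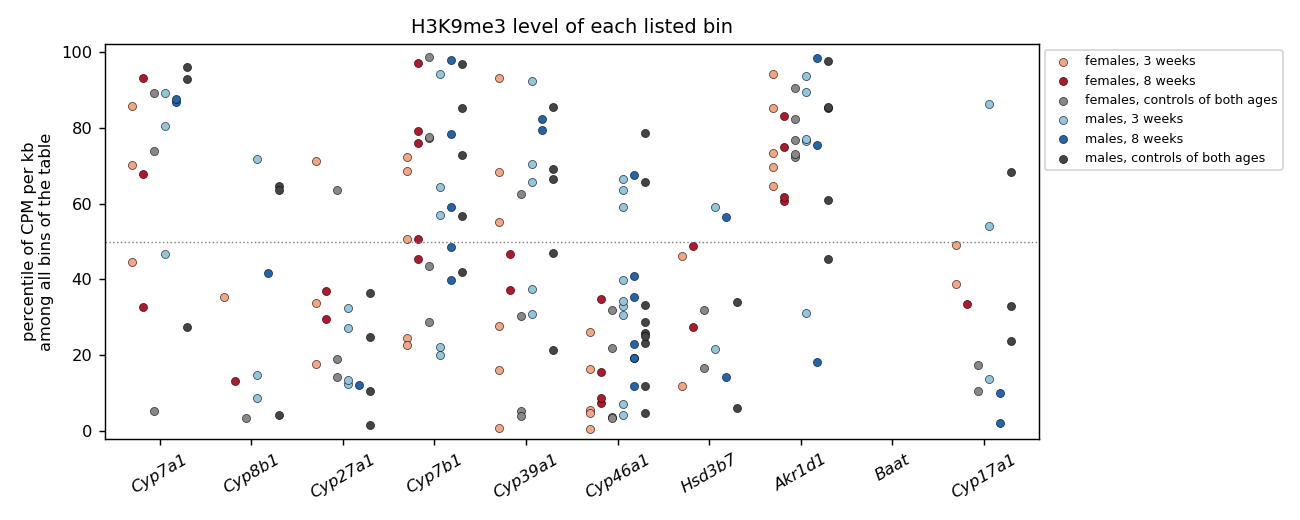
Percentile of CPM per kb of each listed bin (points) among all bins of the same table, by gene and table (colours). Akr1d1, Cyp7a1 and Cyp7b1 reach above the 95th percentile in at least 1 table, Cyp46a1, Cyp8b1, Cyp27a1 and Hsd3b7 stay at or below the 78.6th, and Baat has no point.

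Cyp7a1 (chr4:6265612-6275633, minus strand) had 8 distinct bins, all of them intergenic and none within the gene. The nearest peak to its start site lay 19348 bp away in females and 27144 bp away in males. The bin nearest the start site was female (chr4:6255896-6256285, beyond the end of the gene), with 2.50 log2 CPM at 3 weeks, 2.76 at 8 weeks and 2.82 in controls. The bin 33105 bp upstream (chr4:6308738-6309066) had a mean level of 2.53 log2 CPM in females at 3 weeks, 3.08 at 8 weeks and 2.88 in controls of both ages. Its male counterpart (chr4:6308740-6309054) had 2.10, 2.93 and 2.51. Per kb these values lay at or above the 80.3rd percentile in 6 of 6 tables, and by level, which does not raise such short bins, between the 58.5th and the 86.9th. A male bin 40919 bp upstream (chr4:6316552-6316785) had 1.87 log2 CPM at 3 weeks, 2.52 at 8 weeks and 2.22 in controls, and no female peak overlapped it.

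Cyp8b1 (chr9:121914356-121916305, minus strand), which has no introns, had 8 bins. A female peak of 4711 bp and a male peak of 1457 bp lay over the gene but ended 93 bp and 338 bp short of the start site. In females the level was 2.43 log2 CPM at 3 weeks and 2.41 at 8 weeks in the bin 4303 bp from the start site, and 2.32 in controls in another bin of that peak. Its highest male level was 2.84 log2 CPM at 8 weeks, in a bin over the gene 1294 bp from the start site (chr9:121914511-121915011). The male bin nearest the start site (chr9:121915511-121915967, 338 bp away) was listed in controls alone, at 1.61 log2 CPM.

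Cyp27a1 (chr1:74713574-74737892, plus strand) carried a peak over its start site in both sexes, of 689 bp in females and 673 bp in males. The bin there took in the whole promoter printed above. In females its level was 2.27 log2 CPM at 3 weeks, 2.67 at 8 weeks and 2.52 in controls. In males it was 1.84 at 3 weeks and 2.17 in controls, and the peak was not listed at 8 weeks. Per kb these levels lay between the 12.6th and the 37.1st percentile of their tables. The highest Cyp27a1 bin lay in intron 1 (chr1:74728154-74728645, females), with 2.85 log2 CPM at 3 weeks, 2.56 at 8 weeks and 2.99 in controls. The male bin in that intron (chr1:74727534-74728034), with 97.2% masked bases, had 2.00, 2.52 and 2.03. Bins downstream of the gene lay over Prkag3, a neighbour.

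Cyp7b1 (chr3:18071950-18243338, minus strand) also carried a peak over its start site in both sexes, and its highest levels lay at 2 other places, in intron 1 and upstream. At the start site, the female bin (chr3:18242986-18243460) had 2.76 log2 CPM at 3 weeks, 3.20 at 8 weeks and 3.17 in controls. The male bin (chr3:18242897-18243397) had 2.35, 2.92 and 2.44. Per kb the start-site bins lay between the 68.6th and the 77.1st percentile in females and between the 48.4th and the 56.9th in males. They held 34 and 32 CG dinucleotides, and 4.84% and 4.59% of their bases were masked. In intron 1, 46759 bp into the gene, the female bin chr3:18196079-18196579 had 3.88 log2 CPM at 8 weeks and 3.95 in controls, the 99.2nd and 99.7th percentiles of all bins by level. The male bin at the same place (chr3:18196041-18196541) had 3.42 and 2.97. At 3 weeks the tables listed the adjoining bin of that intronic peak instead, at 2.33 log2 CPM in females and 1.95 in males, so no age difference could be taken there. The other place lay upstream of the gene. The male bin chr3:18295593-18295992, 52255 bp from the start site, had 2.81, 3.74 and 3.05 log2 CPM, between the 97.9th and the 98.7th percentile by level, and the female bin (chr3:18295664-18296164) had 2.89, 3.34 and 3.25. Apart from the start site and these 2 places, Cyp7b1 bins stayed between 1.92 and 2.85 log2 CPM.

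**Figure D3:**
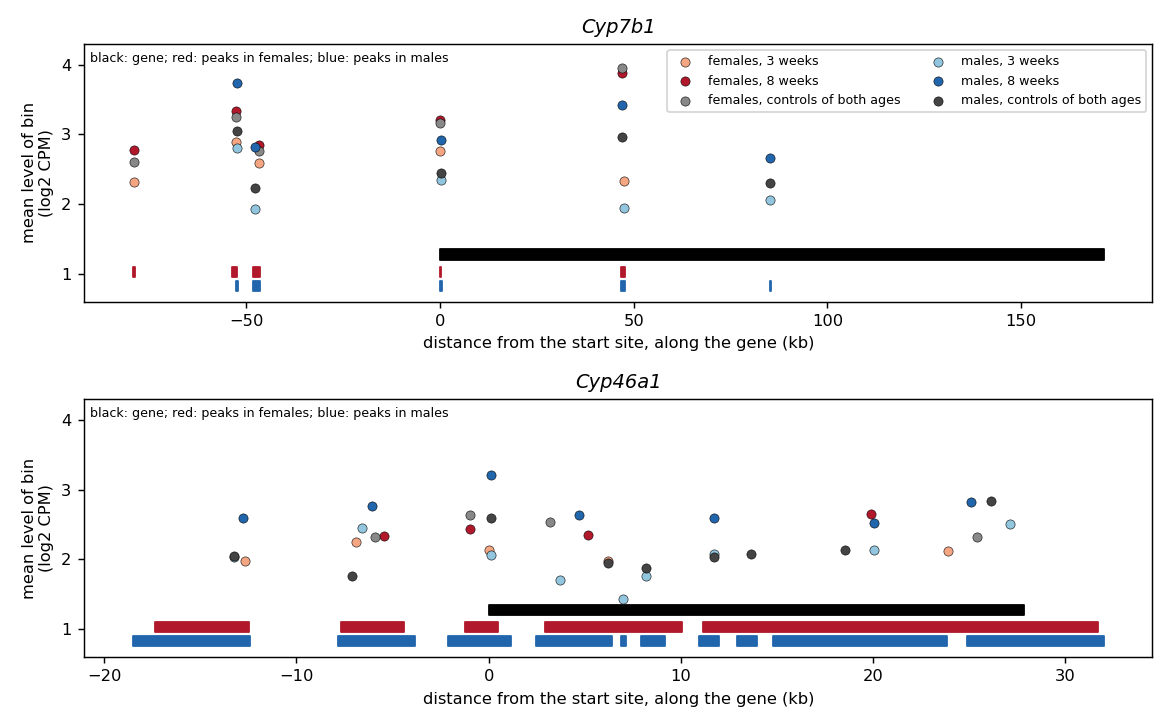
Mean level of each listed bin (points, log2 CPM) against its distance from the start site along the gene (kb), for Cyp7b1 and Cyp46a1, with the gene in black and the peaks assigned to it in red (females) and blue (males). Cyp7b1 has few short peaks with levels up to 3.95, and Cyp46a1 has wide peaks with levels up to 3.22.

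Cyp39a1 (chr17:43667425-43751431, plus strand) had 13 bins, 10 of them inside the gene, in introns 6 and 7, and none over the start site. The peak nearest its start site lay 415 bp away in females and 3114 bp away in males, and both were assigned to the neighbouring gene Slc25a27. The bin nearest the start site was in intron 6. In females (chr17:43691874-43692328) it had 2.69 log2 CPM at 3 weeks, 2.65 at 8 weeks and 2.86 in controls. In males (chr17:43691962-43692237) it had 2.20, 2.64 and 2.11. The highest male level was 2.95 log2 CPM, at 8 weeks, in an intron 7 bin (chr17:43724675-43725029) that had 2.08 at 3 weeks and 2.11 in controls.

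Cyp46a1 (chr12:108334381-108362234, plus strand) had the most bins, 30, of which 20 lay within the gene; the other 10 lay upstream of it, 9 of them over Hhipl1. A male bin over the start site (chr12:108334275-108334775), which overlaps the printed promoter and holds 62 CG dinucleotides, had 2.06 log2 CPM at 3 weeks, 3.22 at 8 weeks and 2.59 in controls. The female bin over the start site (chr12:108334148-108334648) was listed at 3 weeks alone, at 2.13 log2 CPM, and another bin of the same peak, 733 bp upstream of the start site, had 2.44 at 8 weeks and 2.64 in controls. Near the end of the gene, male levels reached 2.83 log2 CPM at 8 weeks and in controls. In females no Cyp46a1 bin was above 2.65 log2 CPM in any table, and the lowest, in intron 1 at 3 weeks, had 1.97.

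Hsd3b7 (chr7:127800604-127803802, plus strand) lay under a long peak, with a second one just upstream over Setd1a. The female peak of 4814 bp covered the start site, and the male peak of 5272 bp began 442 bp inside the gene. Of its 9 bins, 3 overlapped the gene and 4 lay over Setd1a upstream. The male bin nearest the start site (chr7:127799550-127800014, 590 bp upstream) had 2.28 log2 CPM at 3 weeks and 2.93 at 8 weeks. In females the bin inside the gene (chr7:127802648-127803148) had 2.56 log2 CPM at 8 weeks and 2.63 in controls, and a bin of the upstream peak had 2.54 at 3 weeks and 2.82 at 8 weeks (chr7:127795596-127796096).

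Akr1d1 (chr6:37530173-37568815, plus strand) had 13 bins, of which 1 lay in the gene, a female bin of 255 bp (chr6:37536885-37537139) with 2.41 log2 CPM at 3 weeks and 2.55 in controls that was not listed at 8 weeks. The other bins lay 4092 to 8838 bp upstream or 41366 to 117843 bp beyond the end of the gene. The highest levels were in the farthest peak, over the processed pseudogene Ybx1-ps2. There the male bin chr6:37686158-37686658 had 4.11 log2 CPM at 8 weeks and 3.45 in controls, the 99.4th and 99.6th percentiles by level. The female bin chr6:37686106-37686606 had 3.43 log2 CPM at 8 weeks, and the adjoining female bin had 2.91 at 3 weeks and 3.23 in controls. In males at 3 weeks the adjoining bin was listed, at 2.70 log2 CPM. The bin nearest the start site was male (chr6:37525807-37526081, 4092 bp upstream), with 1.83 log2 CPM at 3 weeks and 1.65 in controls, and was not listed at 8 weeks. Farther upstream, the female bin chr6:37520835-37521335 had 2.77, 3.00 and 3.16 log2 CPM.

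Cyp17a1 (chr19:46667165-46673172, minus strand) had 9 bins, none of them in the gene. Over Wbp1l, the next gene, lay 7 of them, among them those of the longest peak, of 3922 bp in females and 3612 bp in males. The bin nearest the start site was female (chr19:46674632-46675132, 1460 bp upstream, over the processed pseudogene Gm6967), with 2.57 log2 CPM at 3 weeks and 2.50 in controls, and was not listed at 8 weeks. The highest level was 2.63 log2 CPM, in females at 8 weeks, in the 3′ UTR of Wbp1l (chr19:46654138-46654638). The male bin chr19:46658382-46658882 had 1.85 log2 CPM at 3 weeks, 2.35 at 8 weeks and 2.02 in controls. Baat (chr4:49489422-49506557, minus strand) had no bin within the gene or 10 kb on either side in any table, and its nearest peak lay 20489 bp from the gene in females and 14596 bp in males.

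In females 20 of 48 member bins overlapped the gene they were assigned to, and in males 31 of 62 did. Of the others, 14 female bins overlapped another gene only and 14 no gene, with 15 and 16 in males. The share of member bins that the authors placed in promoters (within 3 kb of a start site of any transcript) was 18.8% to 34.5% over the 6 tables, against 19.7% to 22.9% of all bins.

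The first comparison asked how the mark differed between 3 and 8 weeks, across weaning and sexual maturation. No member bin differed between the ages by more than 1.5-fold in either sex. The difference was taken between the mean at 8 weeks and the mean at 3 weeks (8 libraries each, MO and control together) for bins listed in both tables, minus the median difference of all such bins, which was 0.23 (log2) in females and 0.63 in males. Of 76657 bins in females, 2.75% were higher and 1.3% were lower at 8 weeks by more than 1.5-fold, and 0 of 16 member bins were. Of 69096 bins in males, 3.31% were higher and 1.67% lower, and 0 of 15 member bins were. At these shares, none or 1 such bin among so few is near the background, so the count does not set the members apart.

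The largest age difference in females was at the Cyp27a1 intron 1 bin, from 2.85 log2 CPM at 3 weeks to 2.56 at 8 weeks, a centred difference of -0.51 (log2) at the 2.60th percentile of all bins. At the other end, the Cyp7a1 bin 33105 bp upstream had a centred difference of 0.32 in females and 0.20 in males. In males the largest was at the Cyp46a1 start site, from 2.06 to 3.22 log2 CPM, a centred difference of 0.52 at the 95.2nd percentile. The Cyp7b1 start-site bins had centred differences of 0.22 in females and -0.06 in males, and the Cyp27a1 start-site bin had 0.18 in females. For the other genes, the largest centred differences in females were -0.34 at Akr1d1 (chr6:37616249-37616605, 2.64 to 2.53 log2 CPM), -0.26 at Cyp39a1 (intron 6), -0.25 at Cyp8b1, 0.24 at Cyp7b1 (chr3:18322060-18322560, 2.31 to 2.78 log2 CPM) and 0.06 at Hsd3b7. In males they were 0.30 at Cyp7b1 (the upstream bin), -0.24 at Akr1d1 (chr6:37521913-37522213, 2.24 to 2.63 log2 CPM), 0.24 at Cyp39a1 (intron 7), -0.13 at Cyp17a1, -0.11 at Cyp27a1 and 0.02 at Hsd3b7. Female Cyp46a1 and Cyp17a1 and male Cyp8b1 had no bin listed at both ages. The median over member bins was 0.04 (log2) in females, where the 5th and 95th percentiles of all bins were -0.44 and 0.49, and -0.02 in males, where they were -0.46 and 0.52.

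Which peaks were listed also differed by age in both the members and the whole set. Of 32 member peaks listed at 3 weeks in females, 24 were listed at 8 weeks (75%, against 73.0% of all peaks). In males 25 of 39 were (64.1%, against 60.7%). No member peak was listed at 8 weeks alone, of 24 listed then in females and 25 in males, against 11.9% of all peaks listed at 8 weeks in females and 5.30% in males.

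The second comparison asked how males and females differed at each age. At 3 weeks, pairs of bins that overlapped by at least 50% of each bin were compared, as males minus females, after the median of all pairs (-0.32, log2) was subtracted. Past 1.5-fold in either direction were 2.37% of 56658 pairs and 0 of 12 member pairs. The male and female bins of a pair could differ in width, as in 51.6% of these pairs; with levels per kb, 9.17% of all pairs and again 0 member pairs were past it. The largest difference was at an Akr1d1 bin 80259 bp from the start site (chr6:37610432-37610932), with 2.85 log2 CPM in females and 2.04 in males, a centred difference of -0.50 at the 2.80th percentile. The Cyp46a1 start site was at the other end, with 0.25. At the Cyp7b1 start site the centred difference was -0.09, and at the Cyp27a1 start site -0.12.

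At 8 weeks the median of all pairs was 0.09 (log2), and 3.23% of 49276 pairs and 1 of 7 member pairs were past 1.5-fold. That pair was the Akr1d1 peak over Ybx1-ps2, with 3.43 log2 CPM in females and 4.11 in males, a centred difference of 0.59 at the 98.5th percentile. The value lay just past the threshold of 0.585, and 1 pair is too few to set the members apart. The Cyp7b1 intron 1 pair was the lowest, with 3.88 log2 CPM in females and 3.42 in males, a centred difference of -0.55 at the 2.09th percentile. The Cyp7b1 start-site pair had -0.37, and the Cyp7b1 pair upstream had 0.31, so the 3 Cyp7b1 pairs did not share a direction. The upstream pair set a male bin of 400 bp against a female bin of full width, and the Cyp39a1 intron 6 pair a male bin of 276 bp against a female bin of 455 bp. At the Cyp7a1 bin 33105 bp upstream, females had 3.08 and males 2.93 log2 CPM, a centred difference of -0.24. With subtraction of the median of bins of like level, the Akr1d1 pair had 0.52 and was no longer past the threshold, and the Cyp7b1 intron 1 pair had -0.62 and was past it. With levels per kb, 8.29% of all pairs and 2 of 7 member pairs were past the threshold. They were the Cyp7b1 upstream pair, with 0.63 (0.31 by level), and the Cyp39a1 intron 6 pair, with 0.61 (-0.10 by level), both of unequal width, while the Akr1d1 pair, of equal width, had 0.58 and fell just short. Which member pair passed at 8 weeks therefore changed with the scale.

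Peaks were called in each sex apart, and the members' peaks overlapped between the sexes about as often as all peaks did. Of 32 female member peaks, 25 overlapped a male peak (78.1%, against 77.1% of all female peaks), and of 41 male member peaks, 31 overlapped a female peak (75.6%, against 72.8%).

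The third comparison asked how offspring of MO dams differed from controls. For each sex, the mean over MO libraries was derived from the 3 tables (the mean CPM at 3 weeks plus that at 8 weeks minus that of controls) and divided by the control mean, over both ages together; the log2 ratio was then centred on the median of all bins (-0.24 in females and 0.44 in males). No member bin was past 1.5-fold in either sex. In females 1.92% of 66676 bins were past it in either direction, and 0 of 13 member bins. In males 0.407% of 60699 bins were, and 0 of 13 member bins. When the 3 tables were first scaled to a common median the shares were 0.883% and 0.959%, again with 0 member bins. The derived value combines 3 separately normalised means and cannot separate 3 from 8 weeks.

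In males the 2 Cyp7a1 bins were the lowest members, with -0.42 (log2) for the bin 40919 bp upstream and -0.31 for the bin 33107 bp upstream, or -0.49 and -0.41 with scaled tables. The 2 female Cyp7a1 bins differed in sign, with 0.15 for the bin 33105 bp upstream (0.12 with scaled tables) and -0.17 for the bin beyond the end of the gene (-0.15 with scaled tables). Cyp39a1 held the highest member in both sexes, at different intron 7 bins, with 0.32 in females (chr17:43703286-43703755) and 0.38 in males (chr17:43724675-43725029), or 0.31 and 0.39 with scaled tables. Its intron 6 bins differed in sign, with -0.17 in females and 0.15 in males, or -0.13 and 0.21 with scaled tables. In females the Cyp27a1 intron 1 bin had -0.38 (-0.30 with scaled tables) and the Akr1d1 bin 8838 bp upstream had -0.36 (-0.32 with scaled tables), and the male bin in that Cyp27a1 intron had 0.02. At the Cyp46a1 start site, males had -0.14, or -0.27 with scaled tables. The Cyp7b1 start site had -0.12 in females and -0.03 in males. The comparisons of diet and of age use the same libraries, so their values for a bin are not independent.

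**Figure D4:**
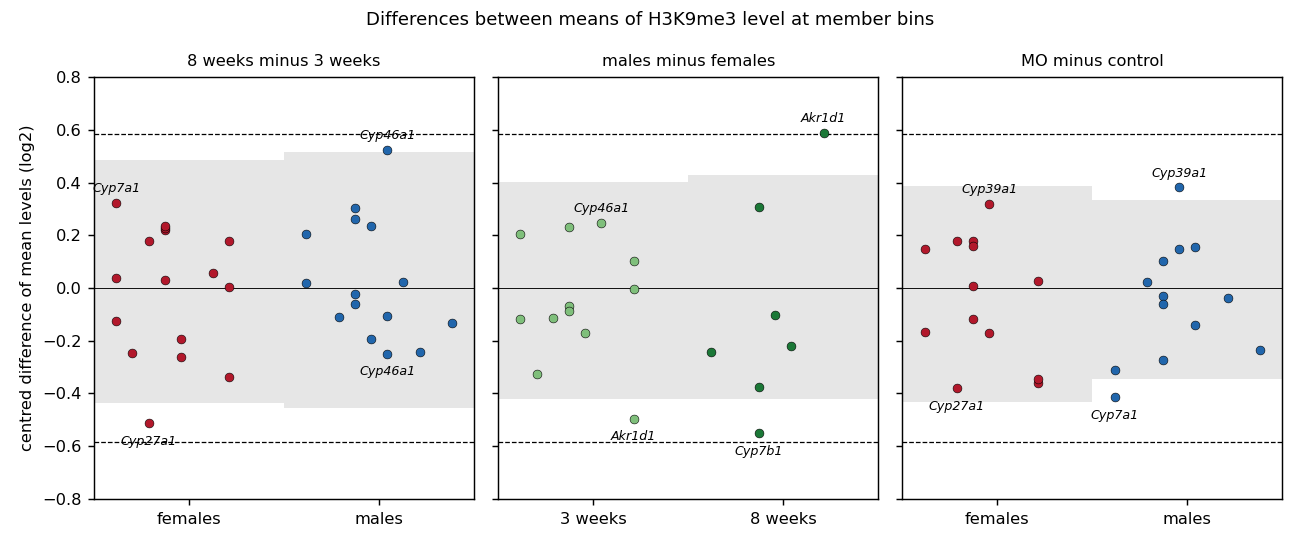
Centred differences of mean levels (log2) at member bins for age, sex and diet, each point 1 bin; grey bands hold the 5th to 95th percentile of all bins and dashed lines mark 1.5-fold. Apart from the Akr1d1 pair at 8 weeks, the points lie within the dashed lines.

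Some bins of other genes in these pathways did differ between the ages by more than 1.5-fold, after the same centring on all bins. In males the subtracted median was 0.63 (log2), so a bin counted as lower could have an unchanged mean level. The counts below stand against 2.75% higher and 1.3% lower of all bins in females, and 3.31% and 1.67% in males. Of 15 other bile acid synthesis genes, 15 had a bin in at least 1 table, with 3 of 30 female bins higher and 1 lower at 8 weeks by more than 1.5-fold, and 0 of 30 male bins higher and 5 lower. Among 17 bile acid regulators and transporters, 16 had a bin (all but Mafg), with 1 higher and 1 lower of 87 in females and 2 higher and 3 lower of 73 in males. Among 33 other steroid synthesis genes, 32 had a bin (all but Hsd3b9), with 3 higher and 2 lower of 62 in females and 2 higher and 4 lower of 66 in males. Among the genes of these lists, 3 had a bin past the fold in both sexes, each at different bins in females and males. Cyp3a11, a cytochrome P450 that hydroxylates bile acids and drugs, had higher bins in females (0.60 and 0.80) and a lower bin in males (-0.64). Prox1, a transcription factor of hepatocytes, had a lower intronic bin in females (-0.70) and a lower bin 58845 bp from its start site in males (-1.05). Slc10a2, the ileal bile acid transporter, had a higher distal bin in females (0.71, 145046 bp from its start site). Another was higher in males (0.69, 111101 bp away). Past the fold the other way in males were 2 more of its bins, with -0.80 (2.90 to 2.73 log2 CPM) and -0.59 (2.93 to 2.97 log2 CPM). The median centred difference of the 3 lists was 0.02, 0.01 and 0.05 (log2) in females, and -0.17, -0.01 and 0.01 in males, in the order given.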

How the data were processed

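The authors sequenced H3K9me3 ChIP and input libraries as paired-end reads, aligned them with the Burrows-Wheeler Aligner to mm10/GRCm38, called broad peaks with MACS2 (named in the submitters' processing notes), removed blacklisted regions, merged peaks found in most replicates separately for each sex, cut long peaks into bins, counted reads with featureCounts, compared groups with edgeR and annotated bins with ChIPseeker. The deposited value used was the authors' mean log2 CPM per bin, over the 8 libraries of both groups of a table. The deposited tables also hold the authors' own fold changes, p-values and FDRs, which were not used. No column held values per library, so the planned count test per library was not run.

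Members were bins whose symbol equalled 1 of the 10 gene names. The members and lists were chosen with earlier results of these data known. All 10 members were named; for genes with more than 3 bins, values were given for the bin nearest the start site, the highest bin and those with the largest age difference, with others added for context after their values were seen. Differences of means were centred on the median of all bins compared, and past the fold means above 1.5-fold (0.58, log2). Genes of the fixed lists were named where past the fold in both sexes. The functions were tested on simulated means. Gene positions came from GENCODE M21 and sequences from RefSeq (GRCm38.p6), read with Python 3.11.15, pandas 2.3.3, numpy 2.4.6, pysam 0.24.0 and samtools 1.23.1; figures used matplotlib 3.10.9. The alternatives were a looser and a stricter fold, other centring, other matching of bins, bins of higher level, peaks of a single bin, levels per kb between the sexes, and bins within 10 kb of a gene. The position of some bins relative to other genes is not reported here.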

Additional observations from a re-analysis of the deposited data

How the results depend on the processing

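Counts of member bins changed by less than 1.5 times in 32 alternative values and by more in 14. Some of the 32 could not have changed, so the tally is no measure of stability. Where the main count was 0, a fold of 2 also had to give 0. Matching bins by overlap within a sex gave the same bins as identical coordinates. The counts within 10 kb of a gene are among the 32 and take in bins assigned to other genes. Identical coordinates in both sexes left no member pair at either age and gave no value. The looser fold limit was a ratio 25% above 1, taken in either direction and so symmetric in log2. With it, the count was 3 for age in females (24.2% of all bins) and 1 for age in males (26.5%). For sex the count was 2 at 3 weeks (19.4%) and 3 at 8 weeks (20.7%). For diet the count was 3 in females (19.5%) and 2 in males (12.0%). Without centring, it was 8 of 15 for age in males (56.8% of all bins), 2 for sex at 3 weeks (14.0%), 3 for diet in females (9.51%) and 3 for diet in males (24.6%), settings that leave the difference in scaling between tables in place. Among bins above the median level, it was 1 of 10 for age in females (5.33% of all bins). For sex at 8 weeks the count was 2 of 7 with levels per kb (8.29% of all pairs), 0 of 7 with a fold of 2 (0.428% of all pairs) and 0 of 2 among peaks of a single bin (1.88%), a setting chosen after seeing the data, as were levels per kb and the scaling of tables before the diet difference. The Akr1d1 pair at 8 weeks had 0.59, below a fold of 2, 0.68 without centring, 0.58 per kb and 0.52 with the median of like levels subtracted.

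No paired analysis was possible because the values used are means over libraries. Leaving out single libraries was not run for the same reason, and the depth reached by each library, which bears on the precision of the means, was not analysed here.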
